A study of Homo sapiens with 48 samples.

Results

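The genes described here were 9 genes of MHC class I antigen presentation: the class I heavy chains HLA-B, HLA-C and HLA-E, the light chain B2M, the peptide transporter subunits TAP1 and TAP2, the loading chaperone TAPBP (tapasin), the trimming enzyme ERAP1 and the transcriptional activator NLRC5. They were chosen by symbol and make up 9 of the 58302 genes in the deposited count table. Messenger RNA had been sequenced from AMO1, an established human multiple myeloma line grown from a plasmacytoma, after doxycycline (Dox) switched on integrated shRNAs. In shIRE1 clones 1 and 3 the shRNAs were directed against ERN1, which encodes the endoplasmic reticulum (ER) stress sensor IRE1, and shXBP1 clones 1 and 18 carried shRNAs to XBP1, the transcription factor mRNA that active IRE1 splices. Each clone was collected after 0, 24, 48 and 72 h at 0.2 µg/ml Dox, each in 3 flasks, giving 16 groups and 48 libraries. The question was whether loss of IRE1 and loss of XBP1 move the same genes. All groups share the AMO1 background and carry a Dox-driven mix of shRNAs. No control shRNA entered the analysis, so every change is relative to the same clone at 0 h and contains any effect of Dox itself. Each line is a single clone, and a result belongs to that clone.

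Class I molecules show fragments of intracellular protein to CD8 T cells. Peptides cut by the proteasome are pumped into the ER by the TAP1 and TAP2 pair, trimmed by ERAP1, and fitted into a heavy chain paired with B2M while tapasin holds it beside the transporter. Class I genes share promoter elements bound by the RFX, CREB/ATF and NFY factors on which NLRC5 acts, together with sites for NF-kappaB and interferon regulatory factors. Plasma cells, which secrete large amounts of antibody, run this assembly line in an ER controlled by IRE1 and XBP1.

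Libraries held between 19177855 and 40767202 counts (median 30776246.5), and levels are given as CPM, the counts of a gene per 1000000 counts of its library, scaled by TMM. A single count was worth at most 0.0521 CPM, and each of the 9 genes was well above that. ERN1 fell in the shIRE1 clones (mean 152 to 102 CPM in clone 1 and 438 to 125 CPM in clone 3 at 72 h), and XBP1 fell in the shXBP1 clones (167 to 34.0 CPM in clone 1 and 170.3 to 37.9 CPM in clone 18). All 9 plasma cell markers were at 31.7 CPM or more in every library. Of 3 B cell, 5 T and NK cell, 4 myeloid, 3 fibroblast and 3 epithelial markers, 2, 2, 3, 2 and 1 stayed below 1 CPM in every library, and the highest of the others were NCAM1 (1.68 to 67.1 CPM) and CD3E (4.59 to 17.3 CPM). A pair of libraries went against their labels. Replicate 3 of shXBP1 clone 18 at 72 h correlated better with shXBP1 clone 1 (r = 0.996) than with its own clone (r = 0.985), and lay on the clone 1 side for 23 of 23 genes that separate the clones. Replicate 1 of shIRE1 clone 3 at 24 h correlated slightly better with shIRE1 clone 1 (r = 0.994) than with its own clone (r = 0.992). Labels were kept, and refits of the 9 genes without these libraries are given beside the results they touch. Values of other genes, counts of other lists and correlations keep these libraries.

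All the genes but 3 lie in the MHC region of chromosome 6. In GENCODE 44 on GRCh38, HLA-E spans chr6:30489509-30494194, HLA-C chr6:31268749-31272130 and HLA-B chr6:31353872-31367067. Further along lie TAP2 chr6:32821833-32838739, TAP1 chr6:32845209-32853816 and TAPBP chr6:33299694-33314284. B2M lies at chr15:44711358-44718851, ERAP1 at chr5:96760810-96808100 and NLRC5 at chr16:56989485-57083531. Heavy chains are near copies of each other, and of the 50-base windows of their main transcripts 2.56% in HLA-B, 6.76% in HLA-C and 6.16% in HLA-E also occur in other genes, chiefly other class I genes. For TAP2 the share was 35.3%, almost all of it with another annotated gene whose exons overlap those of TAP2 on the same strand. By this measure TAP2 counts are the least certain of the set. The windows come from reference transcripts, and the alleles that AMO1 carries were not examined. The shares were 7.09% for TAPBP, 1.18% for TAP1 and 0% for B2M, ERAP1 and NLRC5.

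Before Dox, B2M was by far the most abundant of the 9 genes per kilobase of transcript and NLRC5 and TAP2 the least. Mean B2M levels at 0 h ran from 1890 to 3990 CPM per kilobase over the clones. On the same scale HLA-B ran from 341 to 788, HLA-C from 191 to 462 and HLA-E from 39.9 to 98.7. TAP1 ran from 42.1 to 84.2, TAPBP from 40.9 to 59.4, ERAP1 from 40.96 to 58.4, TAP2 from 10.2 to 11.3 and NLRC5 from 8.52 to 14.2. The clones differed in their starting level. shXBP1 clone 18 had the highest mean at 0 h for every gene except TAP2, and its libraries did not overlap with those of the next clone for HLA-B, HLA-C, HLA-E, B2M, TAP1 and NLRC5, whereas for TAPBP and ERAP1 they did. Such separation was not counted over all genes, of which 51.3% differed between the shXBP1 clones at 0 h by the edgeR test below. For TAP2 all neighbouring clones overlapped, and their means lay between 57.8 and 63.7 CPM.

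The starting levels of the paired clones were compared in a fit of all 48 libraries with edgeR's quasi-likelihood test, whose p-values were adjusted over all genes. Differences are on the log2 scale with their standard error (SE). Of the 9 genes, 7 were lower in shXBP1 clone 1 than in clone 18 at 0 h, where 51.3% of all genes tested differed. The largest of these were B2M (-1.08, SE 0.07, adjusted p = 2.73e-15), HLA-B (-1.08, SE 0.13, adjusted p = 6.2e-09), HLA-E (-1.04, SE 0.11, adjusted p = 2.69e-10) and TAP1 (-0.96, SE 0.11, adjusted p = 1.88e-09). TAP2 differed by 0.06 (interval of 1.96 SE to each side, -0.03 to 0.15) and TAPBP by -0.02 (-0.20 to 0.15). Between the shIRE1 clones 6 of the 9 genes were lower and 1 was higher in clone 1 than in clone 3, where 40.6% of all genes differed. HLA-E had the largest difference (-0.73, SE 0.11, adjusted p = 9.79e-07), followed by HLA-C (-0.57) and HLA-B (-0.43). NLRC5 was the gene that was higher in clone 1 (0.28, SE 0.11, adjusted p = 0.0475), but that call was lost without any of 5 of the 6 libraries at 0 h (all but clone 3 replicate 2), with values from 0.20 to 0.34.

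**Figure D1:**
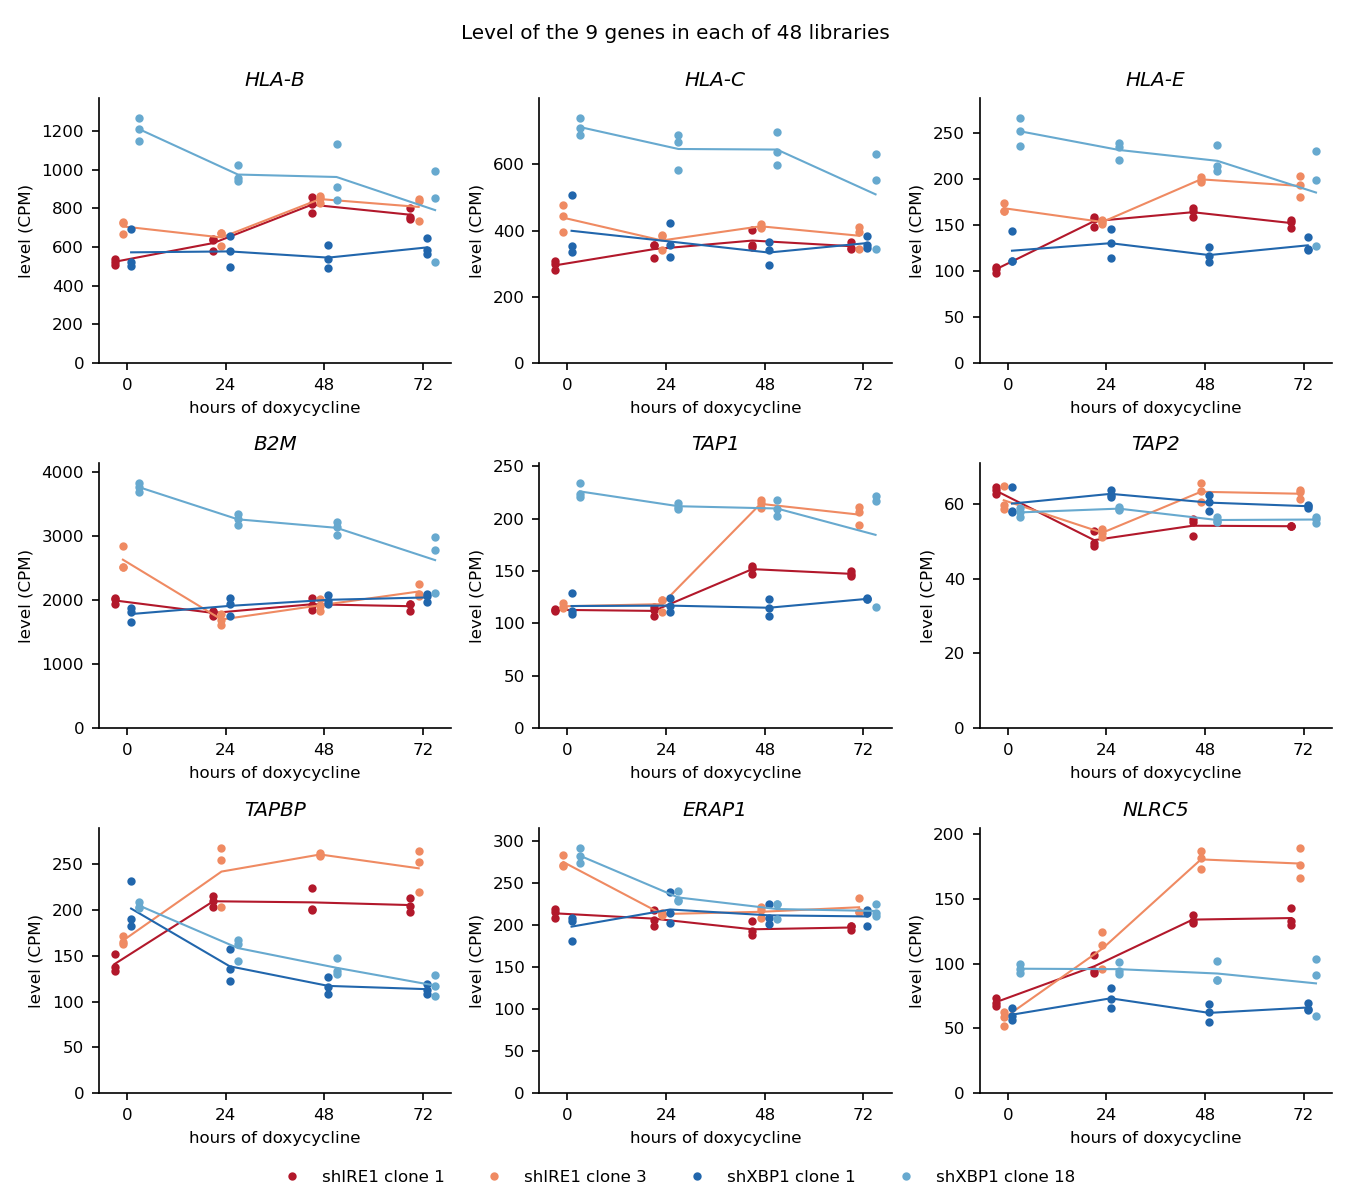
Level in CPM (vertical axis from 0, scaled for each gene) of the 9 genes in all 48 libraries against hours of Dox, with a point per library and lines through the mean of each clone. TAPBP rises in the shIRE1 clones and falls in the shXBP1 clones, NLRC5 and TAP1 rise in the shIRE1 clones, and a single shXBP1 clone 18 library at 72 h lies at the level of clone 1 for HLA-B, B2M and TAP1.

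Several of these genes carry the known class I elements close to their start site, and because NLRC5, HLA-B and TAP1 rose in both shIRE1 clones, the stretches of promoter that hold them are printed. They were read from RefSeq on GRCh38.p14, where 7 of the 9 genes had an entry, and HLA-E and NLRC5 had none. Strings were searched on both strands. TGACG followed by ATTGG after 20 to 30 bases marks the CREB/ATF and NFY boxes of class I promoters and occurs in 0.447% of 35116 promoters of the same length. GAAA followed by GAAA after 2 bases marks the interferon response element and occurs in 3.57%. GGGNNTT followed by CC after 1 base marks NF-kappaB and occurs in 5.68%. A match is a description of letters. The sequences run 5′ to 3′ on the gene's strand, matches are in capitals, and positions count from the start site.
HLA-B, chr6:31357246-31357366, bases -187 to -67: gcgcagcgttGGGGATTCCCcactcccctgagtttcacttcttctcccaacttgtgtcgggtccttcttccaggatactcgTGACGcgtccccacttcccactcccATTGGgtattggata
HLA-C, chr6:31272158-31272207, bases -115 to -66: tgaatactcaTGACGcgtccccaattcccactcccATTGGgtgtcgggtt
B2M, chr15:44711363-44711482, bases -154 to -35: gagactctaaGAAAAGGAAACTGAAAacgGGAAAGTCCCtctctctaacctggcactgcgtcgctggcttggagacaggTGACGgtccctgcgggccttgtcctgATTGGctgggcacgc
TAP1, chr6:32853757-32853848, bases -144 to -53: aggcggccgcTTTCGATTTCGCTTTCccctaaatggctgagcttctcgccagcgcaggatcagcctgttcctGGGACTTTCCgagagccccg
TAP2, chr6:32838778-32838807, bases -68 to -39: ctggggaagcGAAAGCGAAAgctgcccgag
TAPBP, chr6:33314079-33314144, bases -66 to -1: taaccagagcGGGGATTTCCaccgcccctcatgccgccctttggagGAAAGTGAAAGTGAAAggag
The paired boxes were found in HLA-B, HLA-C and B2M, the interferon string in B2M, TAP1, TAP2, TAPBP and ERAP1, and the NF-kappaB string in HLA-B, B2M, TAP1, TAPBP and ERAP1. The search took exact strings, so a promoter without a match may still hold a variant of the element. In ERAP1 the interferon element lies just after the start site and the NF-kappaB string at bases -73 to -64, and neither is printed. TAP1 and ERAP1 each had a further promoter entry, chr6:32852712-32853011 and chr5:96814096-96814395, in which none of the strings was found. Genes that rose in the shIRE1 clones (TAP1, TAPBP) and genes that fell or did not pass the test (B2M, TAP2, ERAP1) both carry the interferon string. Whether any of these strings had a part in the changes was not tested.

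Changes with Dox were tested within each clone, on its 12 libraries, against its own 0 h. NLRC5, the activator that drives class I transcription, rose most of the 9 genes at 48 and 72 h in the shIRE1 clones. In shIRE1 clone 1 it was at 67.2, 73.3 and 69.8 CPM at 0 h, at 93.0, 94.3 and 106 CPM at 24 h, at 137, 133 and 131 CPM at 48 h and at 143, 129 and 133 CPM at 72 h. In shIRE1 clone 3 it was at 51.8, 62.8 and 58.8 CPM at 0 h, at 95.8, 124 and 115 CPM at 24 h, at 187, 173 and 181 CPM at 48 h and at 189.5, 176 and 166 CPM at 72 h. In both clones every library with Dox was above every library without it. The log2 fold change at 72 h was 0.94 in clone 1 (SE 0.06, adjusted p = 3.45e-11) and 1.61 in clone 3 (SE 0.09, adjusted p = 1.14e-09), and at 24 h it was 0.48 and 0.94; without the doubted replicate 1 at 24 h, the clone 3 value was 1.04. NLRC5 in shXBP1 clone 1 lay between 54.7 and 81.0 CPM throughout. Clone 18 lay between 87.5 and 103 CPM apart from the doubted library, at 59.7 CPM, and no time passed the test in either clone (log2 fold changes from -0.18 to 0.25). The value of 0.25 was that of shXBP1 clone 1 at 24 h (adjusted p = 0.0829), where the libraries at 66.0, 81.0 and 72.5 CPM all lay above those at 0 h, at 65.5, 56.3 and 59.8 CPM.

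HLA-B, which presents peptides to T cells and binds KIR receptors of NK cells, rose in the shIRE1 clones. In clone 1 it was at 509, 523 and 539.6 CPM at 0 h, at 581, 638 and 645 CPM at 24 h, at 859.6, 823 and 776 CPM at 48 h, and at 803, 745 and 755 CPM at 72 h. In clone 3 it was at 725, 669 and 728 CPM at 0 h, at 604, 675 and 671 CPM at 24 h, at 853, 826 and 867 CPM at 48 h, and at 851, 838 and 736 CPM at 72 h. Clone 1 separated from its 0 h libraries at every time, and clone 3 at 48 and 72 h only. The log2 fold change at 48 h was 0.65 in clone 1 (SE 0.05, adjusted p = 1.36e-09) and 0.25 in clone 3 (SE 0.07, adjusted p = 0.00409). By 72 h it was 0.55 and 0.18 (adjusted p = 1.52e-08 and 0.0301). The clone 3 call at 72 h was lost without any of the 3 libraries at 0 h or without replicate 1 or 2 at 72 h, with values from 0.13 to 0.24.

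No rise of HLA-B passed the test in the shXBP1 clones. HLA-B in shXBP1 clone 1 was at 695, 523 and 502 CPM at 0 h and at 646, 567 and 583 CPM at 72 h, which overlap. The overlap came from the 0 h library at 695 CPM, and the others at 0 h lay below every 72 h library. The change was 0.04 (SE 0.13, edgeR adjusted p = 0.825), and its sign depended on the library left out. In clone 18 HLA-B was at 1270, 1149 and 1210.4 CPM at 0 h and at 995, 856 and, in the doubted library, 523 CPM at 72 h, all of them below 0 h. Its libraries at 24 h (944, 956 and 1027 CPM) and 48 h (846, 909.8 and 1132 CPM) were also below 0 h; these changes (-0.31 and -0.33) did not pass, and without the doubted library that at 48 h did (-0.33, adjusted p = 0.0216) and that at 24 h did not (-0.31, adjusted p = 0.0551). The fall in clone 18 at 72 h was -0.61 (SE 0.17, adjusted p = 0.0405), and -0.38 (adjusted p = 0.0279) without the doubted library; it did not pass without any of the libraries at 0 h, where the range over left-out libraries was -0.80 to -0.38.

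HLA-C, the other classical heavy chain of the set and a main KIR ligand, rose in shIRE1 clone 1 and did not rise in clone 3, and the difference between these clones at 72 h did not pass (0.45, adjusted p = 0.0685). In clone 1 it was at 280.4, 298 and 307 CPM at 0 h and at 366, 344 and 348 CPM at 72 h, above 0 h at every time (log2 fold changes 0.22, 0.33 and 0.26 at 24, 48 and 72 h, the last with adjusted p = 0.000771). In clone 3 it was at 477, 395 and 443 CPM at 0 h and at 396, 411 and 345 CPM at 72 h, groups that overlap at 396 against 395 CPM. Its clone 3 changes of -0.25 at 24 h and -0.20 at 72 h passed (adjusted p = 0.0172 and 0.0388), and that of -0.10 at 48 h did not (adjusted p = 0.3). The 24 h call was lost without the doubted replicate 1 (-0.19, adjusted p = 0.0647) or without replicate 1 at 0 h. The 72 h call was lost without replicate 1 or 3 at 0 h or replicate 3 at 72 h, with values from -0.29 to -0.13, and also with limma on the deposited log2 values (-0.18, adjusted p = 0.0675). In the shXBP1 clones HLA-C did not pass the test at any time; in clone 18 at 72 h the value was -0.48 (adjusted p = 0.067), and -0.26 without the doubted library.

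HLA-E, which presents leader peptides of other class I molecules to the NKG2A receptor, rose in shIRE1 clone 1 already at 24 h. There it was at 97.7, 102 and 105 CPM at 0 h, at 148, 156 and 158 CPM at 24 h, at 165, 168 and 158 CPM at 48 h and at 156, 153 and 147 CPM at 72 h, with no overlap. The log2 fold change was 0.60 at 24 h (SE 0.05, adjusted p = 1.36e-09) and 0.58 at 72 h. In shIRE1 clone 3 it was at 165, 165 and 174 CPM at 0 h, at 150.5, 155 and 154 CPM at 24 h, at 203, 197 and 199 CPM at 48 h and at 193, 203 and 180.3 CPM at 72 h. That clone first fell (-0.14 at 24 h, adjusted p = 0.0476) and was then higher (0.24 at 48 h and 0.18 at 72 h, adjusted p = 0.00158 and 0.00989). The fall at 24 h was lost without the doubted replicate 1 (-0.13, adjusted p = 0.0961) and without 4 of the 5 other libraries (all but replicate 1 at 0 h), and the call at 72 h without replicate 2 at 0 h or at 72 h (0.13 to 0.23). HLA-E in the shXBP1 clones did not pass the test at any time, with values from -0.44 to 0.07. The lowest was that of clone 18 at 72 h, which was -0.23 (edgeR adjusted p = 0.076) without the doubted library.

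B2M, the invariant light chain that every class I heavy chain needs, did not follow the heavy chains. In shIRE1 clone 3 it was at 2852, 2519 and 2523 CPM at 0 h, at 1789, 1606 and 1695 CPM at 24 h, at 1833, 2021 and 1903 CPM at 48 h and at 2056, 2088 and 2258 CPM at 72 h. Every library with Dox was below every library at 0 h, and the fall was largest at 24 h (log2 fold change -0.64, SE 0.06, adjusted p = 5.91e-07; -0.68 without the doubted replicate) and smaller at 48 h (-0.46) and 72 h (-0.31, adjusted p = 0.000352). In shIRE1 clone 1 it was at 2012, 2038 and 1933 CPM at 0 h and at 1836, 1812 and 1749 CPM at 24 h, a fall of 0.15 (adjusted p = 0.00144), and it did not pass at 48 or 72 h (-0.04 and -0.07).

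The shXBP1 clones went apart for B2M. In shXBP1 clone 18 it was at 3691, 3762 and 3835 CPM at 0 h, at 3347, 3270 and 3169 CPM at 24 h, at 3146, 3219 and 3023 CPM at 48 h, and at 2782, 2983 and, in the doubted library, 2109 CPM at 72 h. All libraries with Dox were below those without it, and the change at 72 h was -0.51 (SE 0.09, adjusted p = 0.00538), or -0.38 (adjusted p = 0.000254) without the doubted library. Left out, that library also let the earlier values pass, -0.21 at 24 h and -0.27 at 48 h (adjusted p = 0.0166 and 0.00148). Clone 1 had 1657, 1869 and 1820 CPM at 0 h and 1974, 2062 and 2088 CPM at 72 h, a rise of 0.17 (SE 0.06, adjusted p = 0.0429) that was lost without replicate 1 at 0 h or replicate 2 or 3 at 72 h (0.13 to 0.21). Fewer cells with B2M and less B2M RNA per cell cannot be told apart in bulk RNA, for this or any other gene here.

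TAP1 and TAP2 form the transporter as partners, but their mRNAs moved apart in the shIRE1 clones. TAP1 in clone 1 was at 112, 114 and 113 CPM at 0 h, at 107, 113 and 116 CPM at 24 h, at 147, 155 and 153 CPM at 48 h and at 149.6, 147 and 145 CPM at 72 h. In clone 3 it was at 119, 114 and 116 CPM at 0 h, at 111, 122 and 122 CPM at 24 h, at 210.0, 218 and 215 CPM at 48 h and at 206, 211 and 194 CPM at 72 h. The 24 h libraries overlapped with 0 h in both clones, and those at 48 and 72 h lay wholly above. The log2 fold change of TAP1 at 48 h was 0.43 in clone 1 (SE 0.04, adjusted p = 1.46e-08) and 0.87 in clone 3 (SE 0.06, adjusted p = 2.82e-09). In the shXBP1 clones it did not pass at any time, and in clone 18 it stayed at 202 to 234 CPM in every library but the doubted one, at 115 CPM.

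TAP2 in shIRE1 clone 1 was at 64.7, 63.7 and 62.6 CPM at 0 h and at 54.1, 54.0 and 54.1 CPM at 72 h, lower at every time (-0.34, -0.23 and -0.24, the last with adjusted p = 0.000199). In clone 3 it was lower at 24 h (52.3, 53.4 and 51.3 CPM against 64.7, 59.8 and 58.6 CPM; -0.23, adjusted p = 0.00362, and -0.23 without the doubted library) and back at 61.3 to 63.8 CPM at 72 h (0.03, adjusted p = 0.668). No time passed in either shXBP1 clone. Per kilobase, TAP1 stood at 3.73 ± 0.08 times TAP2 in shIRE1 clone 1 at 0 h and at 5.73 ± 0.09 times at 72 h (SD, n = 3), and in clone 3 at 4.01 ± 0.14 and 6.82 ± 0.18 times, with no overlap between the libraries of 0 and 72 h. The ratio in shXBP1 clone 1 was 4.09 ± 0.54 and 4.36 ± 0.05. In shXBP1 clone 18 it was 8.22 ± 0.17 and 6.96 ± 2.32, where the doubted library alone was at 4.29.

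TAPBP, the tapasin that bridges transporter and heavy chain, was the gene that rose in both shIRE1 clones and fell in both shXBP1 clones at every time. In shIRE1 clone 1 it was at 134, 137 and 152 CPM at 0 h, at 204, 216 and 209.5 CPM at 24 h, at 224, 200.3 and 201 CPM at 48 h and at 214, 198 and 205 CPM at 72 h. In shIRE1 clone 3 it was at 163, 165 and 172 CPM at 0 h, at 203, 268 and 255 CPM at 24 h, at 263, 259 and 261 CPM at 48 h and at 252, 265 and 220.0 CPM at 72 h. The log2 fold changes at 24, 48 and 72 h were 0.57, 0.56 and 0.54 in clone 1 and 0.53, 0.64 and 0.55 in clone 3, about the same at each time. All 6 passed, with adjusted p from 4.33e-08 to 0.000214. Without the doubted library, the lowest of the clone 3 libraries with Dox at 203 CPM, the 24 h value in clone 3 was 0.65.

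In the shXBP1 clones TAPBP fell at every time. In clone 1 it was at 232, 190.2 and 183 CPM at 0 h, at 123, 158 and 135 CPM at 24 h, at 127, 108 and 116 CPM at 48 h and at 119, 108 and 113 CPM at 72 h. In clone 18 it was at 209, 202 and 203 CPM at 0 h, at 145, 168 and 163 CPM at 24 h, at 129.9, 133 and 147 CPM at 48 h and at 129, 107 and 117 CPM at 72 h. No library with Dox reached a 0 h level. The log2 fold change went from -0.56 at 24 h to -0.85 at 72 h in clone 1 (SE 0.11, adjusted p = 0.000142) and from -0.37 to -0.80 in clone 18 (SE 0.08, adjusted p = 2.64e-05). The doubted library did not change that, with -0.80 without it, but the 24 h call in clone 18 (adjusted p = 0.0242) was lost when any of the 6 libraries of 0 and 24 h was left out (-0.41 to -0.30).

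ERAP1, the ER aminopeptidase that trims peptides to length, fell in shIRE1 clone 3 and shXBP1 clone 18, the clones where its level was highest at the start. In shIRE1 clone 3 it was at 272, 284 and 270.2 CPM at 0 h and at 216, 215 and 233 CPM at 72 h (-0.33, SE 0.05, adjusted p = 1.68e-05). In shXBP1 clone 18 it was at 274, 292 and 282 CPM at 0 h and at 211, 226 and 214 CPM at 72 h (-0.38, SE 0.05, adjusted p = 0.00095). In both, every library with Dox lay below 0 h at every time, and in shIRE1 clone 3 at 24 h the value was -0.37 both with and without the doubted library. In shIRE1 clone 1 it was at 219, 215 and 208 CPM at 0 h and at 199, 194 and 199 CPM at 72 h, a smaller fall (-0.12, adjusted p = 0.0139) that was lost without replicate 2 at 72 h (-0.11 to -0.14 over left-out libraries). No time passed in shXBP1 clone 1 (0.06 to 0.12). The clone 18 call at 24 h (-0.28, adjusted p = 0.0197) was lost without any library of 0 h or without replicate 2 or 3 at 24 h (-0.30 to -0.25).

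**Figure D2:**
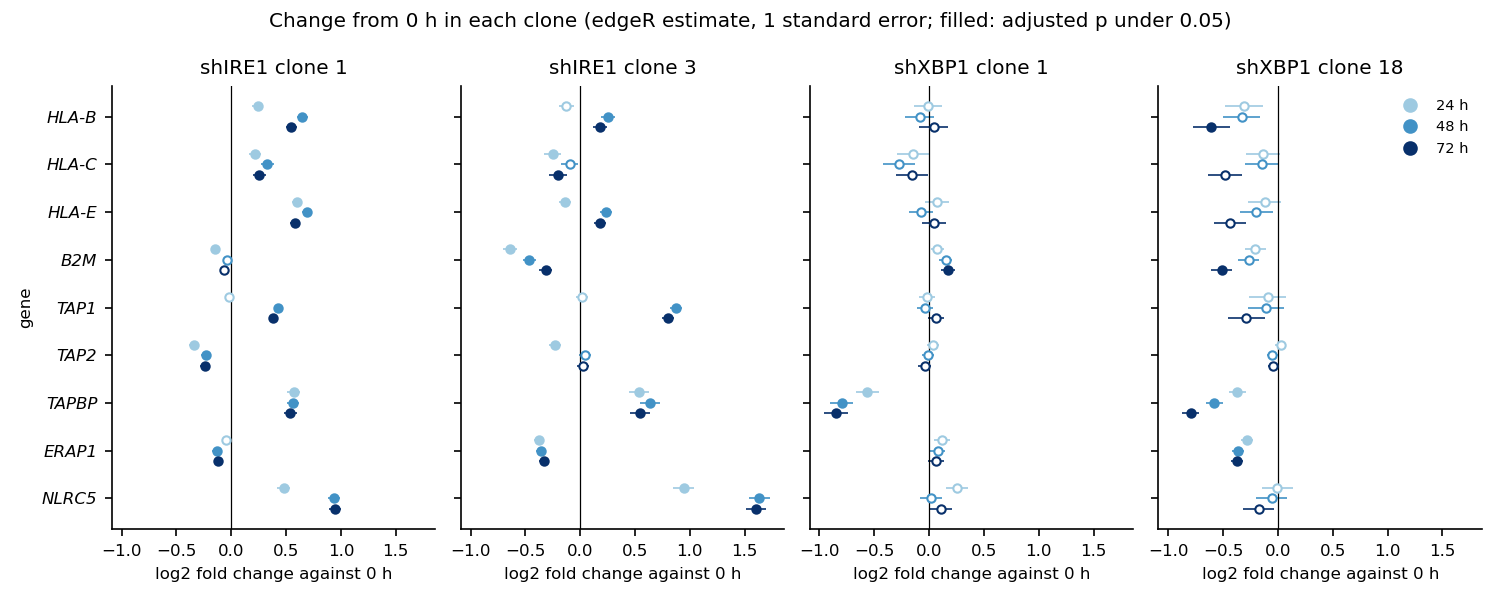
Log2 fold change against 0 h (horizontal axis, shared by the panels) of the 9 genes in each clone, with points at 24, 48 and 72 h and bars of 1 SE from edgeR; filled points have an adjusted p under 0.05. For shIRE1 clone 1 the heavy chains, TAPBP and NLRC5 lie to the right of 0 at all times, in shIRE1 clone 3 6 of the 9 genes lie to the left of 0 at 24 h and HLA-C stays there, and in the shXBP1 clones TAPBP is the lone gene called lower at all times in both.

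Counted over the set, 7, 8 and 8 of the 9 genes were called in shIRE1 clone 1 at 24, 48 and 72 h (5, 6 and 6 higher), where 61.4%, 65.4% and 63.6% of all genes tested were called. shIRE1 clone 3 gave 7, 7 and 8 called genes (2, 5 and 5 higher), against 46.2%, 63.2% and 60.2% of all genes. In shXBP1 clone 1 they were 1, 1 and 2, against 26.7%, 32.0% and 33.6%, and in shXBP1 clone 18 they were 2, 2 and 4, against 1.59%, 5.78% and 9.96%. The median log2 fold change of the set at 72 h was 0.38 and 0.18 in shIRE1 clones 1 and 3, 0.05 in shXBP1 clone 1 and -0.44 in shXBP1 clone 18, against 0.02, 0.02, -0.01 and -0.01 over all genes tested. The clone 18 median includes the doubted library, and without that library the middle value of the 9 genes was that of HLA-C (-0.26). Since most genes were called in the shIRE1 clones, the set is described there by the size and direction of each gene rather than by the count. With all 48 libraries in the fit, which shares 1 estimate of the spread over clones, these calls were lost: HLA-B (0.25), HLA-C (0.22) and B2M (-0.15) at 24 h and HLA-C (0.26) and ERAP1 (-0.12) at 72 h in shIRE1 clone 1, and HLA-C at 24 h (-0.25), HLA-E at 24 h (-0.13), HLA-B at 48 h (0.26) and HLA-B, HLA-C and HLA-E at 72 h (0.19, -0.19 and 0.19) in clone 3. On the 6 libraries compared alone, HLA-B (-0.60) and B2M (-0.51) were lost in shXBP1 clone 18 at 72 h (adjusted p = 0.13 and 0.0622), and HLA-E at 24 h (-0.14) and HLA-C at 72 h (-0.16) in shIRE1 clone 3 (adjusted p = 0.0805 and 0.154).

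Some of the genes, but not all, rose in the shIRE1 clones between 24 and 48 h. TAP1 rose by 0.44 (SE 0.04, adjusted p = 7.98e-08) in clone 1 and by 0.85 (SE 0.06, adjusted p = 1.74e-08) in clone 3 over that interval, NLRC5 by 0.46 and 0.69, and HLA-B by 0.41 and 0.38, whereas TAPBP did not move further (-0.00 and 0.10). NLRC5 had already risen by 0.48 and 0.94 at 24 h. HLA-E in clone 1 had risen by 0.60 at 24 h and then moved by 0.09 (edgeR adjusted p = 0.12). Of the 9 genes 4 passed in clone 1 and 6 in clone 3, where 30.3% and 34.6% of all genes were called. B2M was among them in both clones (0.11 and 0.18, edgeR adjusted p = 0.0299 and 0.0351). In clone 3 they also held TAP2 (0.27) and HLA-E (0.38). Without the doubted 24 h library the clone 3 steps were 0.80 for TAP1, 0.59 for NLRC5, 0.33 for HLA-B and 0.36 for HLA-E. For B2M and TAP2 they were 0.21 and 0.27. Between 48 and 72 h none of the 9 genes passed in either clone, where 0.869% and 0.936% of all genes were called. With edgeR 1 gene in each clone had an unadjusted p under 0.05, HLA-E in clone 1 (-0.11, adjusted p = 0.477) and B2M in clone 3 (0.15, adjusted p = 0.357).

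The response to shIRE1 was then set against the response to shXBP1, as the mean change of the shIRE1 clones minus that of the shXBP1 clones in the fit of all 48 libraries. The 3 times share the 0 h libraries and are not independent. The p-values of this edgeR fit measure the spread between flasks within clones. With 2 clones per shRNA, they do not measure the spread between clones. At 24 h 5 of the 9 genes differed (2 higher, 3 lower) where 38.7% of all genes did, at 48 h 7 (6 higher, 1 lower) where 56.9% did, and at 72 h 6, all of them higher after shIRE1, where 55.3% did. The differences at 72 h were 1.37 for TAPBP (SE 0.09, adjusted p = 3.12e-16), 1.31 for NLRC5 (SE 0.11, adjusted p = 6.9e-13) and 0.70 for TAP1 (SE 0.11, adjusted p = 7.23e-07). Heavy chains differed by 0.65 for HLA-B (SE 0.13, adjusted p = 4.86e-05), 0.58 for HLA-E (SE 0.11, adjusted p = 2.33e-05) and 0.35 for HLA-C (SE 0.13, adjusted p = 0.0242). Without the doubted shXBP1 library the same differences were 1.36, 1.20, 0.57, 0.52, 0.46 and 0.23, and that of HLA-C no longer passed (adjusted p = 0.0764).

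The differences for B2M (-0.02), ERAP1 (-0.07) and TAP2 (-0.06) did not pass at 72 h, with intervals of -0.16 to 0.12, -0.17 to 0.04 and -0.15 to 0.02. At 24 h B2M (-0.34, adjusted p = 0.000238) and TAP2 (-0.32, adjusted p = 2.05e-07) had been lower after shIRE1 and TAPBP (1.01) and NLRC5 (0.58) higher, while the heavy chains and TAP1 did not pass (0.05 to 0.25). HLA-E (0.25, adjusted p = 0.0708) passed without the doubted shXBP1 library (0.24, adjusted p = 0.0135). Without that library the 24 h differences that had passed were -0.35 for B2M, -0.33 for TAP2, 1.00 for TAPBP, 0.57 for NLRC5 and -0.15 for ERAP1, all passing. Without the doubted shIRE1 library they were -0.36, -0.32, 1.07, 0.63 and -0.13, and ERAP1 did not pass (adjusted p = 0.0534). Within the pair of shIRE1 clone 1 and shXBP1 clone 1 the differences at 72 h were 1.37 for TAPBP, 0.82 for NLRC5, 0.51 for HLA-E, 0.49 for HLA-B, 0.40 for HLA-C and 0.30 for TAP1, the last 2 not passing (adjusted p = 0.089 and 0.123). Within the pair of clones 3 and 18 they were 1.36, 1.80, 0.64, 0.80, 0.29 and 1.10, and HLA-C again did not pass (adjusted p = 0.198). Of the earlier differences, B2M at 24 h (-0.25, adjusted p = 0.0696) and NLRC5 at 24 h (0.21, adjusted p = 0.373) did not pass in the first pair, HLA-C at 48 h (0.06, adjusted p = 0.83) not in the second, and B2M at 48 h (-0.21 and -0.19) and ERAP1 at 24 h (-0.18 and -0.09) in neither.

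HLA-C was the weakest of the calls at 48 and 72 h. It was lost at 72 h without any of 6 of the 24 libraries, with values from 0.23 to 0.43. These were the doubted library, shIRE1 clone 1 replicate 1 at 0 h, shIRE1 clone 3 replicate 2 at 0 h or at 72 h, and shXBP1 clone 1 replicate 1 at 0 h or replicate 2 at 72 h. At 48 h it was 0.32 (adjusted p = 0.0355) and was lost without any of 10 libraries, with values from 0.21 to 0.38. ERAP1 at 24 h (-0.14, adjusted p = 0.0444) was likewise lost without any of 10 libraries (-0.17 to -0.12).

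**Figure D3:**
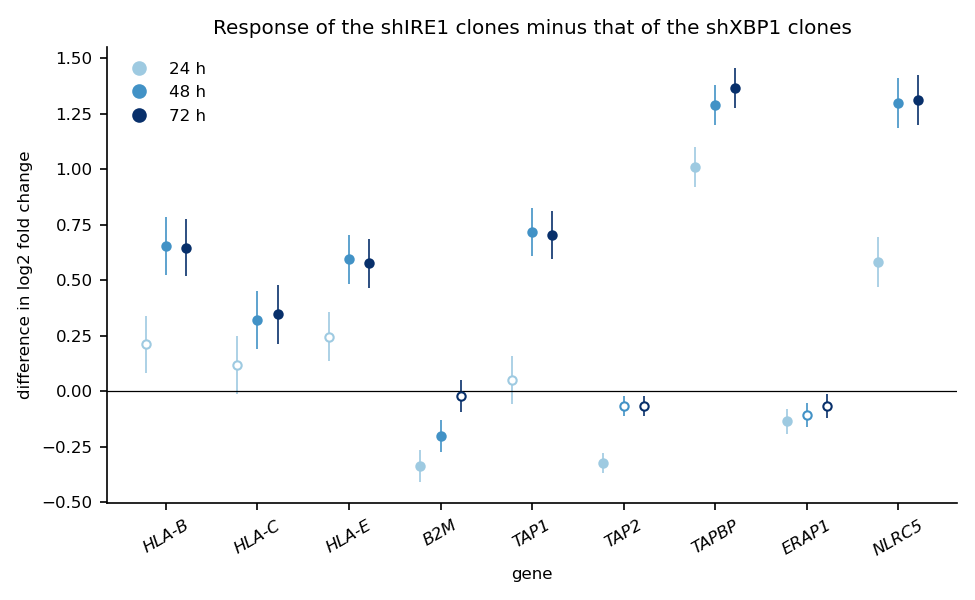
Difference in log2 fold change, shIRE1 clones minus shXBP1 clones (vertical axis), for the 9 genes at 24, 48 and 72 h, with bars of 1 SE from edgeR and filled points for an adjusted p under 0.05. TAPBP lies above 1 at all times, NLRC5 above 1 from 48 h, TAP1 and the heavy chains above 0 from 48 h, and B2M, TAP2 and ERAP1 near or below 0.

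Whether the clones of a shRNA differed in their change was tested at 72 h in the same fit. Between shIRE1 clones 1 and 3, 3 of the 9 genes changed less or further down in clone 1, where 27.5% of all genes differed. These were NLRC5 (-0.67, SE 0.16, adjusted p = 0.00121), TAP1 (-0.43, SE 0.15, adjusted p = 0.0347) and TAP2 (-0.28, SE 0.06, adjusted p = 0.000978), and TAP1 was lost without 9 of the 12 libraries (all but clone 1 replicates 1 and 2 at 72 h and clone 3 replicate 3 at 72 h), with values from -0.47 to -0.41. Without the filter on low counts TAP2 did not pass (adjusted p = 0.077). TAPBP differed by -0.02 (interval -0.27 to 0.23). Heavy chain differences of 0.36 to 0.45 did not pass (adjusted p from 0.0581 to 0.146). ERN1 itself fell less in clone 1 (log2 fold change -0.58 at 72 h) than in clone 3 (-1.82), and its part in these differences was not tested.

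Between shXBP1 clones 1 and 18 the change was higher in clone 1 for 4 of the 9 genes, where 24.6% of all genes differed. These were B2M (0.72, SE 0.10, adjusted p = 1.6e-06), HLA-B (0.68, SE 0.18, adjusted p = 0.00544), HLA-E (0.51, SE 0.15, adjusted p = 0.0127) and ERAP1 (0.47, SE 0.08, adjusted p = 1.52e-05). Without the doubted library 3 of them held (B2M 0.55, HLA-B 0.42 and ERAP1 0.43), and HLA-E did not (0.27, adjusted p = 0.105). HLA-E was also lost without replicate 2 or 3 of clone 1 at 0 h or its replicate 1 at 72 h (0.27 to 0.67 over left-out libraries). TAPBP differed by -0.03 (interval -0.28 to 0.22).

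The other genes of the loading step and of peptide supply were counted from a list of 12, all tested. In shIRE1 clone 1 at 72 h 4 rose and 6 fell, in shIRE1 clone 3 4 rose and 4 fell, in shXBP1 clone 1 2 rose and 3 fell and in shXBP1 clone 18 2 rose and 2 fell, with medians of -0.19, 0.07, -0.09 and -0.11. Of all genes tested, 63.6%, 60.2%, 33.6% and 9.96% were called in these clones at 72 h. The lectin chaperones and their partner enzyme were among those that fell. PDIA3 (ERp57), the thiol oxidoreductase of the loading complex, went from a mean of 398 to 112 CPM in shIRE1 clone 1 and from 271 to 109.9 CPM in clone 3 (log2 fold change -1.83 and -1.32, adjusted p = 1.46e-16 and 3.62e-11), and was at -0.09 and 0.08 in shXBP1 clones 1 and 18, not passing. CANX (calnexin), which holds new heavy chains, fell by 1.18 and 1.16 in the shIRE1 clones and by 0.30 and 0.33 in the shXBP1 clones. CALR (calreticulin), which holds heavy chains in the complex until they are loaded, fell by 1.22 in shIRE1 clone 1 (2189 to 945 CPM) but was at -0.05 in clone 3 (1050.0 to 1023 CPM, adjusted p = 0.383), where it had started lower.

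Genes of the same list that rose in both shIRE1 clones were trimming and proteasome genes. ERAP2, the partner aminopeptidase of ERAP1, went from 215 to 469 CPM in clone 1 and from 200.05 to 605 CPM in clone 3 (log2 fold change 1.12 and 1.58, adjusted p = 5.34e-14 and 1.04e-11), opposite in direction to ERAP1. The immunoproteasome subunits PSMB8 (0.40 in both) and PSMB10 (0.40 and 0.45) rose in both, and PSMB9 in clone 3 (0.36, adjusted p = 0.00058) but not in clone 1 (-0.03). TAPBPL (TAPBPR), the peptide editor related to tapasin, was at 0.36 in clone 1 (adjusted p = 0.000224) and 0.06 in clone 3. In shXBP1 clone 18 TAPBPL fell by 0.42 (adjusted p = 0.0211), as TAPBP did.

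**Figure D4:**
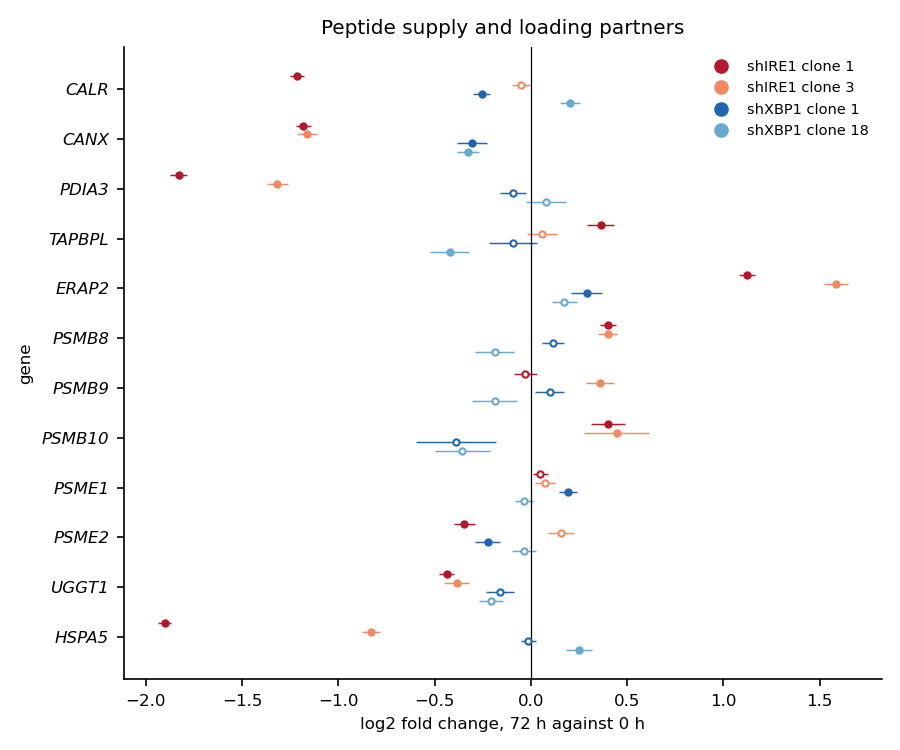
Log2 fold change at 72 h against 0 h (horizontal axis) for the 12 genes of peptide supply and loading in the 4 clones, with bars of 1 SE from edgeR and filled points for an adjusted p under 0.05. In the shIRE1 clones PDIA3 and CANX lie far to the left and ERAP2 far to the right, while the shXBP1 clones stay nearer 0.

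Of 20 regulators of class I genes, 19 were tested, and in the shIRE1 clones at 72 h 8 and 7 rose and 7 and 8 fell (medians 0.05 and -0.12). In the shXBP1 clones 9 and 3 rose and 3 and 1 fell. The shares of all genes called were 63.6% and 60.2% in the shIRE1 clones and 33.6% and 9.96% in the shXBP1 clones. IRF1, an interferon-induced activator of class I promoters, passed in shIRE1 clones 1 and 3 (1.46 and 1.68) and in shXBP1 clone 1 (0.94) and was at -0.29 in clone 18 (adjusted p = 0.377). IRF4, a transcription factor that plasma cells depend on, fell by 1.11 and 2.10 in the shIRE1 clones.

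Interferon receptors and kinases gave 4 and 3 higher and 3 and 3 lower of 7 in the shIRE1 clones, led by TYK2 (0.94 and 1.20). Interferon-stimulated genes outside class I, of which 13 were tested in clone 1 and 14 in clone 3 out of 20, gave 9 and 10 higher and 2 and 2 lower, with medians of 0.62 and 1.28; their largest, MX2, went from means of 0.19 and 0.12 CPM to 2.51 and 4.03 CPM (3.77 and 5.02). In the shXBP1 clones 1 and 0 of that list rose and 2 and 2 fell, of 11 and 12 tested, with medians of -0.20 and -0.77. The clone 18 median keeps the doubted library with the clone 1 profile. At 24 and 48 h the clone 18 medians were -0.09 and -0.18. At 0 h the list already had a median of -1.57 in shXBP1 clone 1 minus clone 18. How far that library sets the 72 h value was not tested. The untested genes had low counts. The counts in this paragraph are for 72 h. At that time 63.6% and 60.2% of all genes were called in the shIRE1 clones. In the shXBP1 clones the shares were 33.6% and 9.96%.

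Over the 16 group means, after the mean of each clone was taken off, the 9 genes did not form a single pattern. Of 36 pairs 27 correlated above 0 and 14 above 0.5. The highest were HLA-B with HLA-E (r = 0.90), TAP1 with NLRC5 (r = 0.86), B2M with ERAP1 (r = 0.84) and HLA-B with HLA-C (r = 0.78). All points come from the same libraries, and the values are a description. The group means keep the doubted libraries, and no correlation was computed without them. Outside the set, the genes most like B2M were EVI5 (r = 0.914), KDM6A (r = 0.911) and SCPEP1 (r = 0.893), those most like HLA-B were SQSTM1 (r = 0.925), AACS (r = 0.912) and AC138028.4 (r = 0.911), and those most like TAP1 were AC020978.10 (r = 0.967), ZNF773 (r = 0.956) and HIST1H4H (r = 0.952).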

How the data were processed

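The authors deposited a table of read counts per gene for 48 RNA-seq libraries (stranded mRNA kit, single-end reads of 50 bases) and a table of log2 CPM values. Per the labels the submitters' processing notes name GSNAP, R 4.1.3, edgeR 3.32.1, limma 3.46.0 and the genome builds GRCh37 and hg19; the build behind the counts was not settled, and no coordinate here comes from the count table. The deposited log2 values equal edgeR's log2 CPM with its default prior to within 1e-09 in every value and served as an alternative. Totals ran from 19177855 to 40767202 counts, and replicates differed by more than counting noise (mean chi-square per degree of freedom 1.62 to 55.8 over 48 pairs). Samples were grouped by title. The flasks are labelled as biological triplicates, and p-values measure the spread between them.

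Counts were scaled by TMM (factors from 0.924 to 1.09), filtered by filterByExpr (minimum count 10, minimum total 15) and tested with edgeR 4.0.16 by the quasi-likelihood F test in R 4.3.3, with Benjamini-Hochberg adjustment over all genes tested and a threshold of 0.05. Each clone was fitted on its 12 libraries, with 0 h as reference. Differences between shRNAs and between clones came from a fit of all 48. SEs are the log2 fold change divided by the square root of F. Levels are CPM on TMM-scaled library sizes, and per kilobase levels use the main GENCODE 44 transcript. The scripts were first tested on simulated data.

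All 9 genes are named. Of the other lists, the genes with values are 10 named in the rule and, for each list, the gene with the largest change called in both shIRE1 clones at 72 h; 1 of these is not reported here. The members, lists and likeness rule were chosen with earlier results of these data known. Alternatives were other scalings, no filter, DESeq2 1.42.0, limma 3.58.1 on the log2 table, a replicate block, fits of all 48 or of 6 libraries, other pairs of clones, and leaving out each library. The 24 to 48 h and 48 to 72 h steps, and fits without the doubted libraries at other times, were added after the data were seen. No replicate block was used in the reported fits. No sample column was left unmapped.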

Additional observations from a re-analysis of the deposited data

Results flagged for a closer look

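The results in this part are those where 2 groups of clones differed by a test of the difference itself, the edgeR fit of all 48 libraries with adjusted p under 0.05; they are given as values, on the log2 scale, without an explanation. The change after shIRE1 minus the change after shXBP1 at 24 h was -0.34 for B2M, -0.32 for TAP2, 1.01 for TAPBP, -0.14 for ERAP1 and 0.58 for NLRC5. At 48 h it was 0.65 for HLA-B, 0.32 for HLA-C, 0.59 for HLA-E, -0.20 for B2M, 0.72 for TAP1, 1.29 for TAPBP and 1.299 for NLRC5. At 72 h it was 0.65 for HLA-B, 0.35 for HLA-C, 0.58 for HLA-E, 0.70 for TAP1, 1.37 for TAPBP and 1.31 for NLRC5. The 3 times share the libraries at 0 h. The adjusted p measures the spread between flasks within clones, not that between clones.

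Between clones of a shRNA the change at 72 h differed too. In shIRE1 clone 1 minus clone 3 the difference was -0.43 for TAP1, -0.28 for TAP2 and -0.67 for NLRC5. In shXBP1 clone 1 minus clone 18 it was 0.68 for HLA-B, 0.51 for HLA-E, 0.72 for B2M and 0.47 for ERAP1, values that include a clone 18 library whose profile was that of clone 1; without it they were 0.42, 0.27, 0.55 and 0.43, and that of HLA-E no longer passed.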

How the results depend on the processing

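Alternatives that kept all libraries left 110 of 125 counts of called genes within 1.5 times of the reported count. Of 1125 values of single genes under them 1038 kept direction and call, 38 lost the call, 33 gained it and 16 changed sign; the cause of a change was not tested. The fit of all 48 libraries gave counts of 4 (shIRE1 clone 1, 24 h), 5 (shIRE1 clone 3, 72 h) and 2 (shXBP1 clone 1, 24 h). Without the filter counts were 2 for shXBP1 clone 1 at 24 and at 48 h, 4 and 7 for shXBP1 clone 18 at 48 and 72 h, 5 for the difference between shIRE1 clones and 7 for that between shXBP1 clones. On the 6 libraries compared they were 4, 5 and 2 for shXBP1 clone 18 at 24, 48 and 72 h, and with the clone 1 pair alone 3 genes differed between shRNAs at 24 h. With replicate number as a block the counts were 1 for shXBP1 clone 1 at 72 h and 1 for shXBP1 clone 18 at 24 h, where TAPBP (-0.37, adjusted p = 0.0501) was lost, as were HLA-E (-0.14) at 24 h and HLA-B (0.18) and HLA-C (-0.20) at 72 h in shIRE1 clone 3, HLA-B (-0.61) in shXBP1 clone 18 and B2M (0.17) in shXBP1 clone 1 at 72 h, ERAP1 in the shRNA difference at 24 h (-0.14) and NLRC5 between shIRE1 clones at 0 h (0.28); other calls of single genes stood under the block. The numbers do not pair the samples: 36 correlations of same-numbered deviations ran from -0.41 to 0.25, and in 0 of 12 comparisons were all above 0.1.

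Signs changed for uncalled values only. These were HLA-B in shXBP1 clone 1 at 24 h (0.012 with all 48 libraries, 0.0067 with the replicate block), TAP1 at 24 h and TAP2 at 48 h in that clone (0.00496 and 0.0070 with all 48), NLRC5 in shXBP1 clone 18 at 24 h (0.014 without the filter, 0.0013 on 6 libraries) and TAPBP between shXBP1 clones at 0 h (0.00018 with RLE factors, 0.00013 with DESeq2). With shIRE1 clone 3 and shXBP1 clone 18 alone the shRNA difference was -0.10 for HLA-C and -0.014 for HLA-E at 24 h, 0.10 for TAP2 and 0.018 for ERAP1 at 48 h, and 0.22 for B2M, 0.089 for TAP2 and 0.069 for ERAP1 at 72 h. With the clone 1 pair TAP1 at 24 h was -0.018.

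With each library left out in turn the counts ran from 7 to 7, 8 to 8 and 7 to 8 in shIRE1 clone 1, 5 to 6, 7 to 7 and 6 to 8 in shIRE1 clone 3, 1 to 2 at each time in shXBP1 clone 1, and 0 to 3, 2 to 4 and 3 to 6 in shXBP1 clone 18 at 24, 48 and 72 h. Those for the shRNA difference were 4 to 6, 6 to 8 and 5 to 6, for the clone differences 2 to 4 (shIRE1) and 3 to 7 (shXBP1), and at 0 h 5 to 6 and 7 to 7. In shXBP1 clone 1 the count was 2 without 24 h replicate 1 (24 h) and without 0 h replicate 2 (48 h), and 1 without 0 h replicate 1 or 72 h replicate 2 or 3 (72 h). In shXBP1 clone 18 at 24 h it was 1 without 24 h replicate 1 and 0 without any of the other 5 libraries compared, at 48 h 4 without 72 h replicate 3, and for the shXBP1 clone difference 7 without clone 18 replicate 1 at 72 h. TAPBP between shIRE1 clones at 0 h (-0.30 to -0.20) lost its call without clone 1 replicate 1 or 2 or clone 3 replicate 2 or 3.

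Values not called whose sign changed on leaving out a library were, in shIRE1 clones, TAP1 at 24 h (-0.044 to 0.014 in clone 1, -0.0092 to 0.067 in clone 3) and TAP2 in clone 3 at 72 h (-0.015 to 0.053). In shXBP1 clone 1 they were HLA-B (-0.11 to 0.16, -0.18 to 0.081 and -0.047 to 0.21 at 24, 48 and 72 h), HLA-E (-0.013 to 0.22, -0.14 to 0.067 and -0.019 to 0.19), HLA-C (-0.26 to 0.080 at 24 h, -0.27 to 0.061 at 72 h), TAP1 (-0.060 to 0.075 at 24 h, -0.092 to 0.049 at 48 h), TAP2 (-0.040 to 0.038 at 48 h, -0.063 to 0.015 at 72 h) and NLRC5 (-0.067 to 0.11 at 48 h). Others were NLRC5 in shXBP1 clone 18 (-0.034 to 0.026 at 24 h, -0.34 to 0.023 at 72 h), the shRNA difference of TAP1 at 24 h (-0.0014 to 0.074) and B2M at 72 h (-0.10 to 0.021), the clone differences of TAPBP (-0.10 to 0.035 in shIRE1, -0.12 to 0.065 in shXBP1) and TAP2 (-0.021 to 0.057 in shXBP1), and TAPBP between shXBP1 clones at 0 h (-0.11 to 0.077).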

Other observations

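Class I-like molecules and stress ligands, a list of 7 of which 6 were tested, gave 3 higher and 1 lower in shIRE1 clone 1 at 72 h (median log2 fold change 0.66), 1 higher and 3 lower in shIRE1 clone 3 (median -0.11), and 1 higher and 0 lower in each shXBP1 clone (medians 0.15 and -0.19). Of all genes tested, 63.6% and 60.2% were called in the shIRE1 clones and 33.6% and 9.96% in shXBP1 clones 1 and 18. The member called in both shIRE1 clones with the largest mean change was MR1, which presents vitamin B metabolites to MAIT cells. Its mean went from 16.8 to 36.4 CPM in shIRE1 clone 1 and from 25.7 to 41.4 CPM in clone 3 (1.11 and 0.67; edgeR adjusted p = 1.1e-10 and 1.59e-06). It was at 0.35 in shXBP1 clone 1 (adjusted p = 0.0113) and at 0.11 in shXBP1 clone 18 (adjusted p = 0.331).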
